A study of Rattus norvegicus with 12 samples.

Results

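The intercalated disc is the structure that joins cardiomyocytes end to end, and 10 of its genes were followed through the RNA-seq data of neonatal rat ventricular myocytes (NRVMs). They were chosen by gene symbol, as 10 of the 18483 genes in the deposited tables, and all 10 were among the 13967 genes expressed highly enough to be tested. They comprise 3 connexins (Gja1, Gja5 and Gjc1), 2 adherens junction genes (Cdh2 and Ctnna3) and 5 desmosomal genes (Dsp, Pkp2, Jup, Dsg2 and Dsc2). NRVMs were isolated from Sprague-Dawley rats and transfected with siNeg, a control siRNA, or with siSlc39a2, a single siRNA sequence against the zinc importer gene Slc39a2. Treated cells received phenylephrine (PE), an α1-adrenergic agonist that drives hypertrophy, for 36 h starting 12 h after transfection according to the sample labels, while the study's methods give a longer treatment for its cultures. The groups siNeg, siSlc39a2, siNeg PE and siSlc39a2 PE held 3 samples each, 12 in all, and all samples were transfected and kept in serum-free medium with insulin, transferrin and selenium. An effect of a single siRNA sequence cannot be told apart from off-target effects of that sequence.

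Gap junctions let ions and small molecules pass between neighbouring cells, so that the electrical impulse spreads through the muscle. They are built of connexins, and they sit in the disc beside adherens junctions, where cadherins are coupled through catenins to the actin filaments, and desmosomes, where desmosomal cadherins are coupled through plakoglobin, plakophilin and desmoplakin to the intermediate filament desmin. Loss of desmosomal proteins is a known cause of arrhythmogenic cardiomyopathy, and gap junctions depend on intact mechanical junctions.

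Total counts per sample were between 24065539 and 28603854. Slc39a2 was lower in siSlc39a2 than in siNeg by a log2 fold change of -2.35 (SE 0.46, edgeR adjusted p = 0.00098). It was lower in siSlc39a2 PE than in siNeg PE by -2.33 (SE 0.38, edgeR adjusted p = 0.000224). Counts of Slc39a2 were low, at most 59 per sample in siNeg, 21 in siSlc39a2, 198 in siNeg PE and 38 in siSlc39a2 PE. Under other settings the knockdown values ran from -3.12 to -1.12 without PE and from -2.59 to -1.55 with PE. PE raised Slc39a2 by 1.47 under control siRNA (edgeR adjusted p = 0.00541) and by 1.49 after knockdown (edgeR adjusted p = 0.0172). Every siSlc39a2 PE sample stayed below every siNeg sample. The hypertrophy markers Nppa and Nppb rose with PE by log2 fold changes of 4.63 and 5.19 under control siRNA. The 12 cardiomyocyte markers, detected in every group as the cell type label implies, summed to 62760 to 64740 CPM (counts per 1000000 of the TMM-normalized library) in siNeg, 50730 to 51880 in siSlc39a2, 67300 to 72570 in siNeg PE and 67960 to 72480 in siSlc39a2 PE. Knockdown without PE lowered 6 of the 12 and raised none, where 26.4% of all genes tested fell and 22.8% rose. The summed level of the siSlc39a2 samples stood below all others. The mean of Myh6 was 15850 CPM in siNeg and 7405 CPM in siSlc39a2, while the means of Tnnt2, Myl2 and Pln were higher in siSlc39a2. Counts of Myh6, Myh7 and Actc1, which hold a large part of the sum, were partly shared with other genes and are uncertain. Markers of other cells were detected as well. The summed level of 12 fibroblast markers was 14170 to 18710 CPM in siNeg and 5454 to 5769 in siSlc39a2. It was 9407 to 12070 in siNeg PE and 3710 to 5117 in siSlc39a2 PE. Most of the sum in siNeg was Col1a1, Col3a1 and Col1a2, at means of 10750, 3533 and 1746 CPM. Of the 12, 9 fell and 1 rose with knockdown both without and with PE. Over all genes tested, 28.1% fell and 29.2% rose with knockdown with PE. In siNeg and siSlc39a2, Tcf21 had means of 27.4 and 34.7 CPM, Pdgfra 41.1 and 44.7, and Ddr2 54.4 and 52.9. Counts of Col1a2 and Pdgfra were also partly shared with other genes. The part of either marker list in the changes of the members was not tested. In bulk RNA, fewer cells of a type, less RNA per cell and changes of the marker genes themselves cannot be told apart. Endothelial markers were scarce, at 21.1 to 31.2 CPM for 10 genes, with Emcn and Cldn5 at no more than 5 counts in any sample.

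The 250 bases before the start of the gene were at hand for 7 of the 10 members (RefSeq, build GRCr8), not for Cdh2, Gjc1 and Pkp2. Both strands were searched for 5 short motifs: the AP-1 site TGANTCA, the GC box GGGCGG, the GATA site GATAA, the E-box CACGTG and the TATA box TATAAA. Below are the promoters of the connexins Gja1 and Gja5, both raised by knockdown without PE, and of Jup, the desmosomal gene that fell with knockdown. They lie on GRCr8 at chr20:36302314-36302563 (plus strand), chr2:187290977-187291226 (plus strand) and chr10:85827430-85827679 (minus strand), and each is written 5′ to 3′ in the direction of its gene, with motif matches in capitals.
Gja1: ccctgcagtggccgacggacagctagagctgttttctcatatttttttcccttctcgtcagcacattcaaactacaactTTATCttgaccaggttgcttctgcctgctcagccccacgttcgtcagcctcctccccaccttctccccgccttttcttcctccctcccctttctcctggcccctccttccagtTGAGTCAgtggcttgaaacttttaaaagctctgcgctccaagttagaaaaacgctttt
Gja5: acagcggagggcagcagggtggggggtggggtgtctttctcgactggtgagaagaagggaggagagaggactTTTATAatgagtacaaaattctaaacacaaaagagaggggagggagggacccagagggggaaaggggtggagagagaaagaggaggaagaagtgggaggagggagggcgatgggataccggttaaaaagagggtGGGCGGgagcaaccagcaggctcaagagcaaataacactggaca
Jup: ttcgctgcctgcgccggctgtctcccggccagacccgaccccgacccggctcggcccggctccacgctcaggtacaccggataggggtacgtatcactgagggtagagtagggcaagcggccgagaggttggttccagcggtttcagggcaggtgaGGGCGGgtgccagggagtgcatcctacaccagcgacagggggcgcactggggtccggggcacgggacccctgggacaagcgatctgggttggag
In Gja1, an AP-1 match began 58 bases and a GATA match, on the opposite strand, 171 bases before the start. Gja5 held a GC box 44 bases and a TATA box match, on the opposite strand, 178 bases before its start, and Jup held a GC box 94 bases before its start. None of these matches overlapped another. Among all 33469 promoters of the same length, 6.34% held the AP-1 letters, 23.5% the GATA letters, 30.5% the GC box, 12.9% the TATA box and 5.59% the E-box. Of the promoters not printed, Dsp held 4 GC boxes, Dsg2 and Dsc2 2 each, and Ctnna3 none of the 5 motifs. GC content was 51.2% in Gja1, 54.8% in Gja5, 47.2% in Ctnna3 and between 64.4% and 75.2% in the 4 desmosomal promoters, against a median of 51.2% over all promoters. A match is a description of the letters and not evidence of binding.

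The transcripts of the disc differed widely in level. Levels of different genes were compared in FPKM, fragments per kilobase of transcript per 1000000 fragments, which takes gene length into account. In siNeg, Gja1 was the highest of the 10 at 233.8 ± 5.68 FPKM (SD, n = 3), followed by Jup at 206.5 ± 7.59 and Cdh2 at 139.5 FPKM. Pkp2 (46.8 FPKM), Dsp (40.2 FPKM) and Gja5 (31.0 FPKM) came next, and the samples of neighbours in that order overlapped. Gjc1 (14.9 FPKM), Dsg2 (8.93 FPKM), Ctnna3 (6.08 FPKM) and Dsc2 (2.77 FPKM) were the lowest, each apart from its neighbour in every sample. The order shifted in the other groups. Cdh2 stood above Jup in siSlc39a2, at 201.6 and 180.4 FPKM without overlap, and in siNeg PE, at 202.0 and 189.4 FPKM with overlap. In siSlc39a2 PE, Cdh2 stood at 295.3 and Gja1 at 260.7 FPKM with overlapping samples, and Pkp2 at 155.9 FPKM overlapped Jup at 168.1 FPKM.

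**Figure D1:**
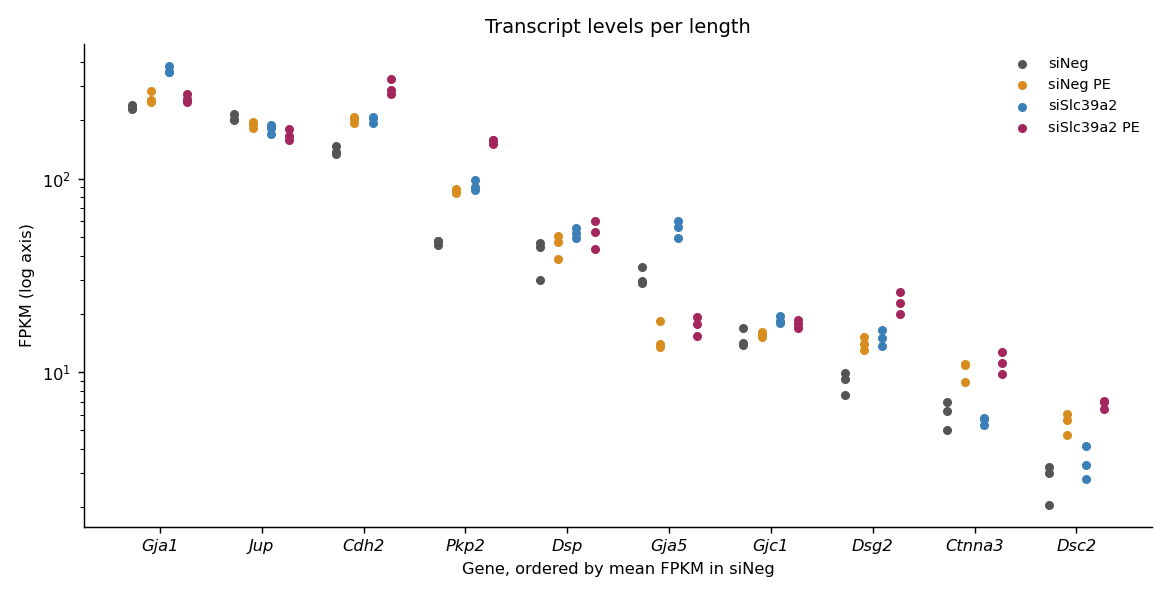
FPKM of each member in each of the 12 samples, on a log axis, with genes ordered by their mean in siNeg and 1 point per sample. Gja1 led in siNeg at a mean of 233.8 FPKM, and Dsc2 was lowest at 2.77 FPKM.

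Changes between groups were tested on counts with edgeR's quasi-likelihood test over all 13967 genes, and a gene was called at a Benjamini-Hochberg adjusted p below 0.05. The knockdown was compared without PE (siSlc39a2 against siNeg) and with PE (siSlc39a2 PE against siNeg PE), which share no sample. Likewise, PE was compared under control siRNA (siNeg PE against siNeg) and after knockdown (siSlc39a2 PE against siSlc39a2). Each knockdown comparison shares a group with each PE comparison, so these are not independent of each other.

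Knockdown without PE raised 5 members (Gja1, Gja5, Cdh2, Pkp2 and Dsg2) and lowered 1 (Jup), where 22.8% of all genes tested rose and 26.4% fell. The median log2 fold change of the 10 was 0.31, against -0.02 over all genes. With PE, knockdown raised 3 members (Cdh2, Pkp2 and Dsg2) and lowered none, against 29.2% and 28.1% of all genes, with a median of 0.19 against 0.01. Leaving out siNeg replicate 1 or siSlc39a2 replicate 3 raised the number called with PE to 5, by the additions of Jup and Dsc2. None of the members passed a log2 fold change of 1 in either knockdown comparison, a size that 9.78% of all genes passed without PE and 11.6% with PE.

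PE raised 5 members under control siRNA (Cdh2, Ctnna3, Pkp2, Dsg2 and Dsc2) and lowered 2 (Gja5 and Jup), where 24.0% of all genes rose and 25.7% fell. After knockdown, PE raised the same 5 members and lowered Gja5 and Gja1, against 30.7% and 29.3% of all genes. The medians were 0.28 against -0.01 over all genes under control siRNA and 0.34 against 0.01 after knockdown. Past a log2 fold change of 1 were 1 member (Gja5) under control siRNA, against 6.60% of all genes, and 3 (Gja5, Ctnna3 and Dsc2) after knockdown, against 10.5%.

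**Figure D2:**
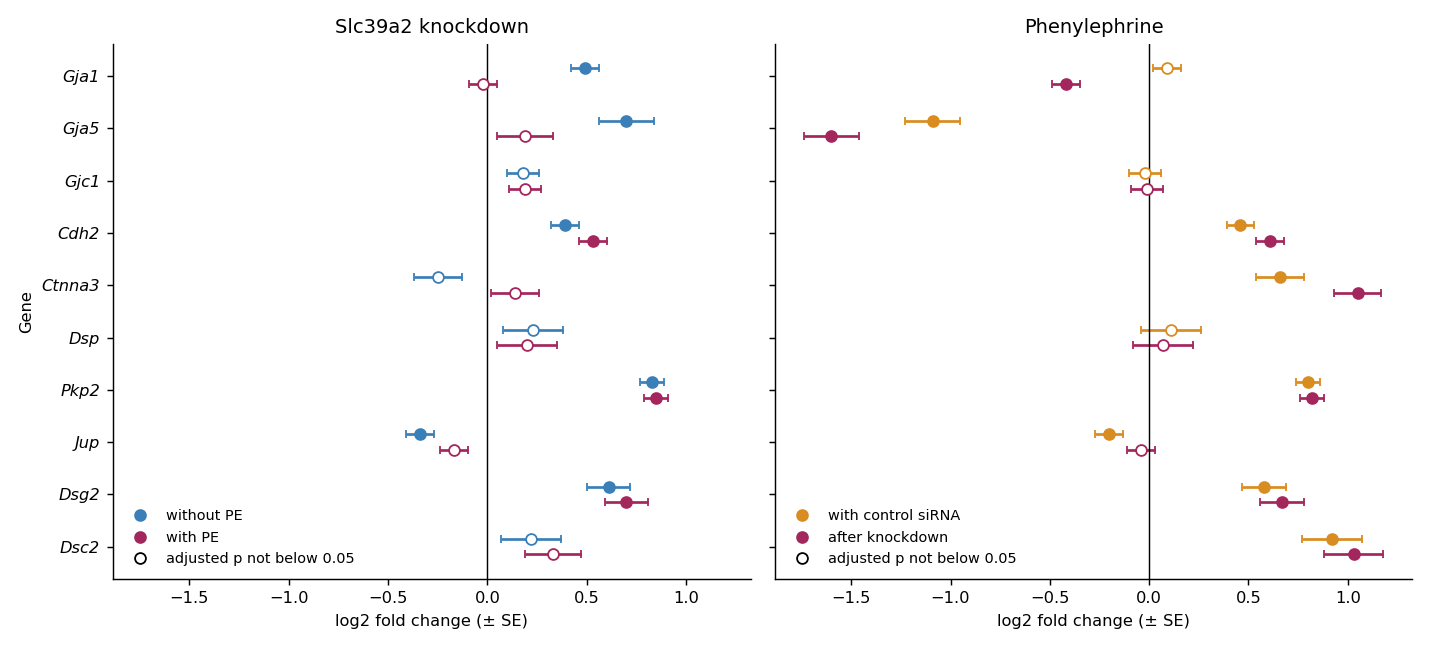
Log2 fold change with its standard error for each member, for knockdown (left) and PE (right), with filled points past an adjusted p below 0.05. Pkp2, Dsg2 and Cdh2 lie to the right of 0 in all 4 comparisons, and Gja5 lies at -1.09 and -1.60 under PE.

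**Figure D3:**
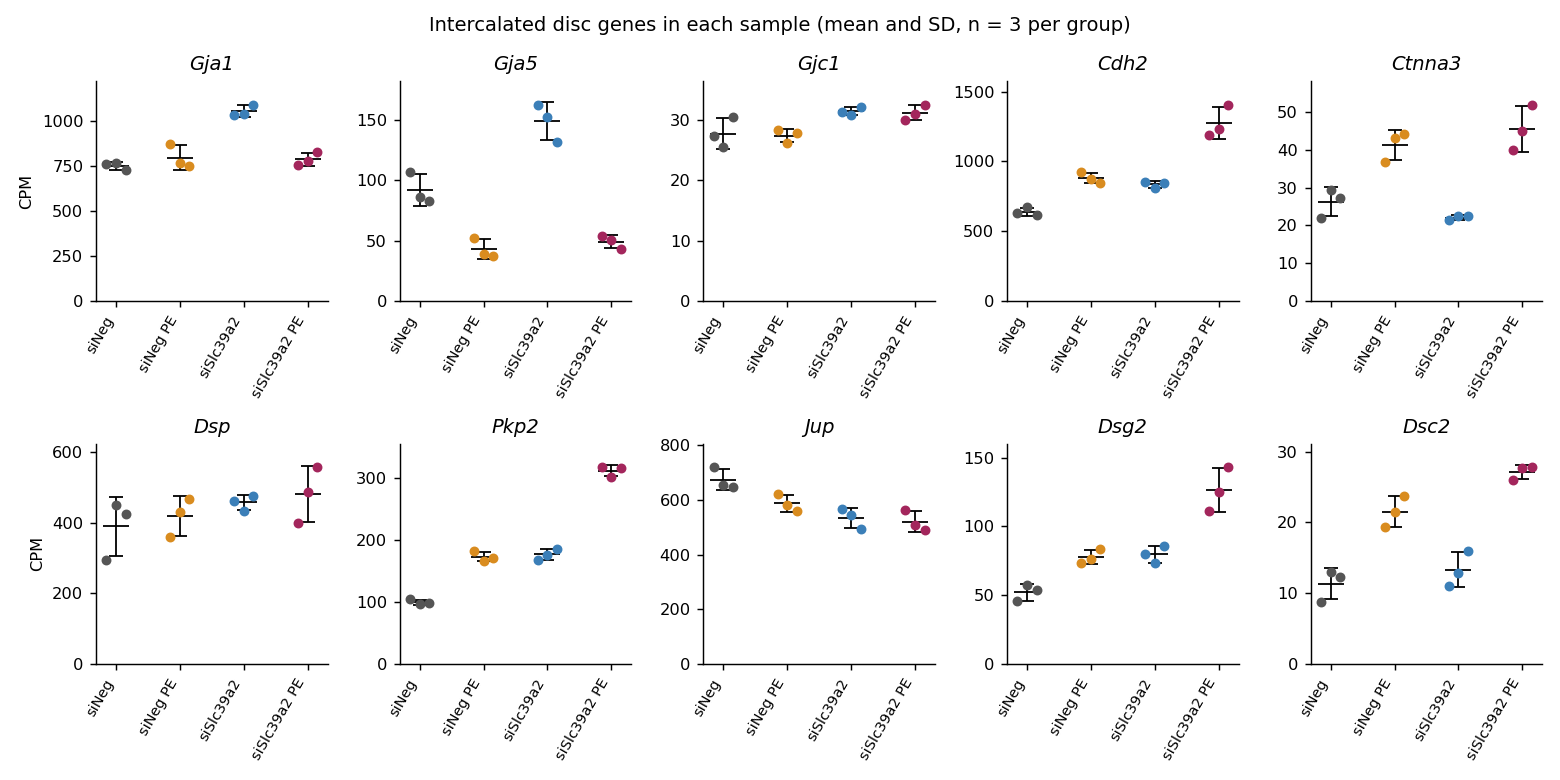
CPM of each member in each sample by group, with 1 point per sample and the mean and SD of 3 samples in black and axes starting at 0. Pkp2 stood near 99 CPM in siNeg, near 173 CPM in siNeg PE and 176 CPM in siSlc39a2, and at 311 CPM in siSlc39a2 PE.

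Gja1 (NCBI gene 24392) encodes connexin 43, the main gap junction protein of working ventricular muscle. It had 762, 766 and 727 CPM in the siNeg samples, 1037, 1040 and 1093 CPM in siSlc39a2, 876, 766 and 751 CPM in siNeg PE and 759, 778 and 829 CPM in siSlc39a2 PE. The 3 siSlc39a2 samples stood above all others, and the PE groups overlapped each other. Knockdown raised Gja1 1.41-fold without PE (log2 fold change 0.49, SE 0.07, edgeR adjusted p = 6.18e-05). With PE the difference was -0.02 (95% interval -0.16 to 0.13, edgeR adjusted p = 0.848). The knockdown effects with and without PE differed by -0.51 (SE 0.09, 95% interval -0.71 to -0.3, edgeR adjusted p = 0.00983), and this interaction was called in all 19 refits under other settings. PE lowered Gja1 after knockdown (log2 fold change -0.42, SE 0.07, edgeR adjusted p = 0.000196), while under control siRNA the value was 0.09 (95% interval -0.06 to 0.23, edgeR adjusted p = 0.299). That last value was called at 0.26 when log2(FPKM + 1) was tested with limma (adjusted p = 0.0137).

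Gja5 (NCBI gene 50563) encodes connexin 40, known for atrial muscle and the ventricular conduction system. Its levels were 107, 86.4 and 82.9 CPM in siNeg, 163, 153 and 132 CPM in siSlc39a2, 52.6, 39.3 and 37.7 CPM in siNeg PE and 54.0, 50.7 and 43.1 CPM in siSlc39a2 PE. Every siSlc39a2 sample was above every siNeg sample, and all PE samples were below all samples without PE. Gja5 rose 1.62-fold with knockdown without PE (log2 fold change 0.70, SE 0.14, edgeR adjusted p = 0.00107). PE lowered it 2.13-fold under control siRNA (log2 fold change -1.09, SE 0.14, edgeR adjusted p = 6.83e-05) and 3.03-fold after knockdown (-1.60, SE 0.14, edgeR adjusted p = 1.81e-06). With PE, the knockdown value was 0.19 (95% interval -0.11 to 0.49, edgeR adjusted p = 0.266), and it was 0.35 (adjusted p = 0.0399) without siNeg PE replicate 1, the highest of its group. The interaction was -0.51 as for Gja1, with a larger error (SE 0.2, edgeR adjusted p = 0.217). With a replicate block in edgeR, this interaction was called (-0.5, adjusted p = 0.00751).

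Among 8 atrial and conduction markers, PE under control siRNA lowered 4 and raised 1, where 25.7% of all genes fell and 24.0% rose. Cntn2, a marker of the conduction system, fell by 1.77 on the log2 scale and Irx3 by 0.65. Of the atrial light chains, Myl4 rose by 0.89 and Myl7 fell by 0.59. Knockdown without PE, which raised Gja5, lowered 2 of the 8 and raised 1, against 26.4% and 22.8% of all genes. Myl4 fell by 1.33 and Myl7 by 1.03 in that comparison, and Hcn4 rose by 0.30. The summed level of the 8 was 356.6 to 391.9 CPM in siNeg, 286.6 to 317.5 CPM in siSlc39a2, 343.0 to 358.1 CPM in siNeg PE and 196.7 to 215.1 CPM in siSlc39a2 PE. Whether these cells had a part in the change of Gja5 was not tested.

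Gjc1 (NCBI gene 266706) encodes connexin 45, a connexin of the embryonic heart and the nodes. It had 27.3, 25.5 and 30.5 CPM in siNeg and 31.4, 30.9 and 32.2 CPM in siSlc39a2, so that the groups did not overlap but lay close. In siNeg PE it had 28.3, 26.1 and 27.8 CPM, and in siSlc39a2 PE 30.1, 31.0 and 32.5 CPM. Neither knockdown value passed the test, at 0.18 without PE (edgeR adjusted p = 0.0666) and 0.19 with PE (edgeR adjusted p = 0.0537). The first was called without siNeg replicate 3 (0.26, adjusted p = 0.019) or siSlc39a2 PE replicate 1 (0.22, adjusted p = 0.0315), and the second without siNeg replicate 2 (0.19, adjusted p = 0.048) or 3 (0.19, adjusted p = 0.036). The first was also called with DESeq2 (0.20, adjusted p = 0.0408) and without the filter on low counts (0.22, adjusted p = 0.0475). For PE, the intervals ran from -0.18 to 0.15 both under control siRNA and after knockdown.

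Among the 3 connexins, the shares of Gja1 and Gja5 stood apart in the samples with PE. In FPKM, Gja1 made up 83.6% ± 1.11 (SD, n = 3) of the sum of the 3 in siNeg and 83.1% ± 1.47 in siSlc39a2, against 89.4% ± 0.261 in siNeg PE and 88.1% ± 0.835 in siSlc39a2 PE. Gja5 made up 11.1% in siNeg, 12.6% in siSlc39a2, 5.21% in siNeg PE and 5.91% in siSlc39a2 PE. For both shares, no sample with PE overlapped a sample without PE, and the 2 siRNA groups overlapped each other without PE. With PE, the share of Gja1 did not overlap, at 89.24% to 89.72% in siNeg PE and 87.32% to 88.98% in siSlc39a2 PE. The share of Gjc1 overlapped between siNeg (4.881% to 6.123%) and siNeg PE (4.962% to 5.818%). The summed FPKM of the 3 was 279.7 ± 4.12 in siNeg, 292.6 ± 20.8 in siNeg PE, 295.9 ± 11.6 in siSlc39a2 PE and 436.7 ± 12.2 in siSlc39a2, where every sample was above all others. These sums do not carry the TMM scaling of the CPM. In CPM, the share of Gja1 was 86.3% in siNeg, 85.4% in siSlc39a2, 91.9% in siNeg PE and 90.7% in siSlc39a2 PE. The shares leave out Gja3, a connexin outside the members. Its means were 23.26 FPKM in siNeg, 20.25 in siSlc39a2, 25.11 in siNeg PE and 20.57 in siSlc39a2 PE, above those of Gjc1 in each group.

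Cdh2 (NCBI gene 83501) encodes N-cadherin, the classical cadherin of the disc. It had 630, 672 and 619 CPM in siNeg, 856, 808 and 846 CPM in siSlc39a2, 921, 877 and 845 CPM in siNeg PE and 1187, 1230 and 1407 CPM in siSlc39a2 PE. All siNeg samples were the lowest and all siSlc39a2 PE samples the highest, and the groups of each comparison did not overlap. It rose 1.31-fold with knockdown without PE (log2 fold change 0.39, SE 0.07, edgeR adjusted p = 0.000586) and 1.45-fold with PE (0.53, SE 0.07, edgeR adjusted p = 4.04e-05). PE raised it 1.38-fold under control siRNA (edgeR adjusted p = 0.000235) and 1.52-fold after knockdown (edgeR adjusted p = 1.68e-05). The interaction of 0.15 (95% interval -0.07 to 0.36) did not pass the test (edgeR adjusted p = 0.526). Cdh2 stood to Gja1 in a ratio of 0.596 ± 0.0167 (FPKM, SD, n = 3) in siNeg and 1.13 ± 0.0506 in siSlc39a2 PE, and this last group was above 1 in every sample.

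Ctnna3 (NCBI gene 361839) encodes αT-catenin, a catenin of heart and testis that also binds plakophilin-2. Its samples had 22.0, 29.5 and 27.3 CPM in siNeg, 21.4, 22.4 and 22.5 CPM in siSlc39a2, 36.8, 43.2 and 44.1 CPM in siNeg PE and 39.9, 45.1 and 52.0 CPM in siSlc39a2 PE. Samples with PE were all above samples without it, and the 2 siRNA groups overlapped under each condition. PE raised Ctnna3 1.58-fold under control siRNA (log2 fold change 0.66, SE 0.12, edgeR adjusted p = 0.000827) and 2.07-fold after knockdown (1.05, SE 0.12, edgeR adjusted p = 1.62e-05). The knockdown values of -0.25 without PE (edgeR adjusted p = 0.106) and 0.14 with PE (edgeR adjusted p = 0.319) did not pass. Without siNeg replicate 1, the lowest of its group, the first was -0.36 with an adjusted p of 0.0224. It was also called with limma, at -0.30 on log2(FPKM + 1) (adjusted p = 0.022), -0.34 on log2(FPKM + 0.1) (adjusted p = 0.0255) and -0.33 on log2(count + 1) (adjusted p = 0.042).

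Dsp (NCBI gene 306871) encodes desmoplakin, which ties the desmosome to desmin. It had 293, 450 and 425 CPM in siNeg, 462, 435 and 477 CPM in siSlc39a2, 358, 431 and 468 CPM in siNeg PE and 398, 487 and 557 CPM in siSlc39a2 PE. The groups overlapped in every comparison, and siNeg replicate 1 was the lowest of the 12 samples. No comparison passed the test, with log2 fold changes between 0.07 and 0.23 and edgeR adjusted p between 0.229 and 0.709. For knockdown without PE, the 95% interval ran from -0.1 to 0.57, and a replicate block in edgeR called the value (0.26, adjusted p = 0.0455). Without siNeg replicate 1, the PE value under control siRNA was -0.06 (adjusted p = 0.726), against 0.11 with it.

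Pkp2 (NCBI gene 287925) encodes plakophilin-2, the plakophilin of the heart. Its levels were 104, 95.7 and 98.7 CPM in siNeg, 168, 176 and 185 CPM in siSlc39a2, 181, 166 and 171 CPM in siNeg PE and 317, 301 and 316 CPM in siSlc39a2 PE. The groups siNeg PE and siSlc39a2 overlapped in the middle, with all siNeg samples below them and all siSlc39a2 PE samples above. Knockdown raised Pkp2 1.77-fold without PE (log2 fold change 0.83, SE 0.06, edgeR adjusted p = 1.89e-07) and 1.80-fold with PE (0.85, SE 0.06, edgeR adjusted p = 1.3e-07). PE raised it 1.74-fold under control siRNA (0.80, SE 0.06, edgeR adjusted p = 9.37e-07) and 1.77-fold after knockdown (0.82, SE 0.06, edgeR adjusted p = 3.08e-07). The knockdown effects with and without PE differed by 0.03 (95% interval -0.16 to 0.21, edgeR adjusted p = 0.931).

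Jup (NCBI gene 81679) encodes plakoglobin, which binds desmosomal cadherins and is also found in adherens junctions. It had 719, 656 and 648 CPM in siNeg, 565, 544 and 493 CPM in siSlc39a2, 620, 583 and 559 CPM in siNeg PE and 563, 509 and 489 CPM in siSlc39a2 PE. The siNeg samples were the highest of the 12, and the PE groups overlapped. Knockdown lowered it 1.26-fold without PE (log2 fold change -0.34, SE 0.07, edgeR adjusted p = 0.00247), a call lost with limma on log2(count + 1) (-0.15, adjusted p = 0.102). The value with PE was -0.17 (edgeR adjusted p = 0.0624), and it was called without siNeg replicate 1 (-0.17, adjusted p = 0.0493), siSlc39a2 PE replicate 1 (-0.23, adjusted p = 0.0262) or siSlc39a2 replicate 3 (-0.17, adjusted p = 0.049), and with limma on log2(FPKM + 1) (-0.21, adjusted p = 0.00672).

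The fall of Jup with PE under control siRNA was small (log2 fold change -0.20, SE 0.07, edgeR adjusted p = 0.0411) and its call was lost in 13 of 20 refits. It was -0.02 with limma on log2(FPKM + 1) (adjusted p = 0.736). Among single libraries, the adjusted p was 0.143 without siNeg replicate 1 (-0.15), 0.0589 without siNeg replicate 2 (-0.22), 0.101 without siNeg PE replicate 2 (-0.19) and 0.14 without siNeg PE replicate 3 (-0.17). It was 0.0533 without siSlc39a2 PE replicate 1 (-0.18), 0.0558 without siSlc39a2 PE replicate 2 (-0.20) and 0.0546 without siSlc39a2 replicate 2 (-0.20). After knockdown, the PE value of Jup was -0.04 (95% interval -0.2 to 0.12, edgeR adjusted p = 0.684).

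Pkp2 and Jup are both armadillo-repeat proteins of the desmosomal plaque, and the proportion of their transcripts was lowest in siNeg and highest in siSlc39a2 PE. The ratio of Pkp2 to Jup in FPKM was 0.227 ± 0.00709 (SD, n = 3) in siNeg, 0.511 ± 0.0611 in siSlc39a2, 0.454 ± 0.0160 in siNeg PE and 0.930 ± 0.0695 in siSlc39a2 PE. Its samples ranged from 0.222 to 0.235 in siNeg and from 0.869 to 1.01 in siSlc39a2 PE, while siNeg PE and siSlc39a2 overlapped. These are descriptions of ratios and no test was run on them.

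**Figure D4:**
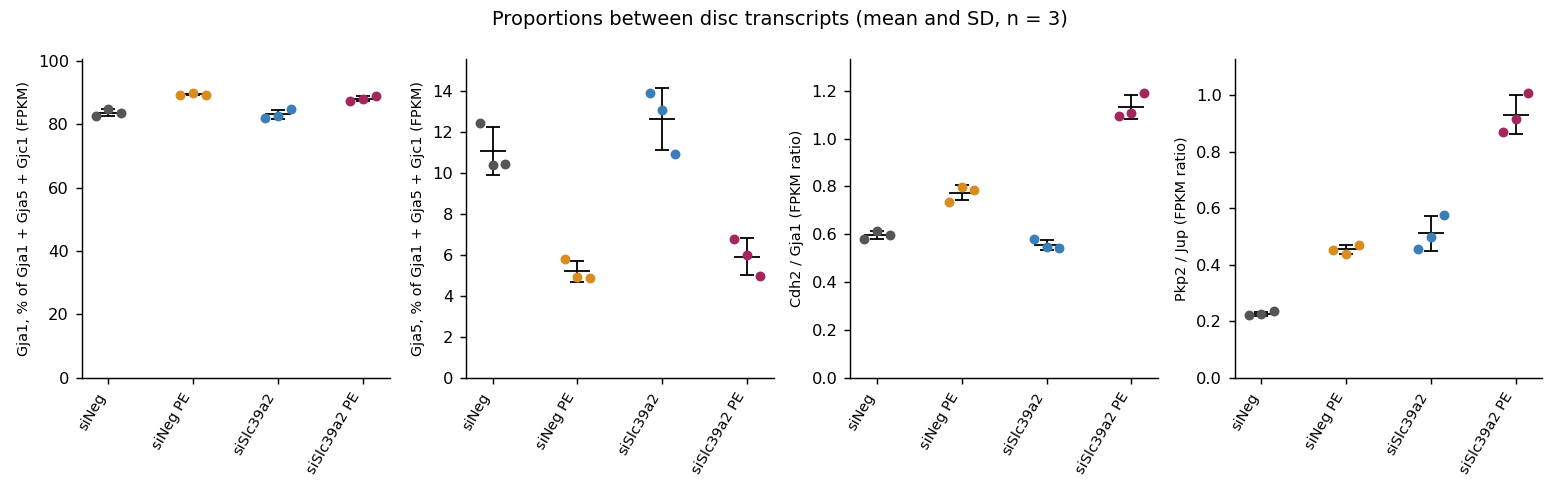
Proportions between members in each sample from FPKM, with the mean and SD of 3 samples in black and axes starting at 0. The share of Gja5 among the 3 connexins was 11.1% in siNeg and 5.21% in siNeg PE, and the ratio of Pkp2 to Jup was 0.227 in siNeg and 0.930 in siSlc39a2 PE.

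Dsg2 (NCBI gene 307562) encodes desmoglein-2, a desmosomal cadherin. It had 45.5, 57.6 and 53.4 CPM in siNeg, 79.8, 73.3 and 85.5 CPM in siSlc39a2, 73.5, 76.3 and 83.6 CPM in siNeg PE and 111, 125 and 143 CPM in siSlc39a2 PE. As for Pkp2, siNeg PE and siSlc39a2 overlapped between a lower siNeg and a higher siSlc39a2 PE group. Dsg2 rose 1.52-fold with knockdown without PE (log2 fold change 0.61, SE 0.11, edgeR adjusted p = 0.000461) and 1.62-fold with PE (0.70, SE 0.11, edgeR adjusted p = 0.000121). PE raised it 1.49-fold under control siRNA (edgeR adjusted p = 0.000925) and 1.59-fold after knockdown (edgeR adjusted p = 0.000192). The interaction was 0.09 (95% interval -0.23 to 0.41, edgeR adjusted p = 0.839).

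Dsc2 (NCBI gene 291760) encodes desmocollin-2, the partner cadherin of desmoglein-2, and was the lowest of the 10 in FPKM in every group. It had 8.80, 12.9 and 12.3 CPM in siNeg, 11.1, 12.8 and 15.9 CPM in siSlc39a2, 19.4, 21.5 and 23.7 CPM in siNeg PE and 26.0, 27.6 and 27.8 CPM in siSlc39a2 PE. Samples with PE lay above all samples without it. PE raised Dsc2 1.90-fold under control siRNA (log2 fold change 0.92, SE 0.15, edgeR adjusted p = 0.000389) and 2.05-fold after knockdown (1.03, SE 0.15, edgeR adjusted p = 9.38e-05). The knockdown value was 0.22 without PE (95% interval -0.11 to 0.55, edgeR adjusted p = 0.244). With PE it was 0.33 (95% interval 0.02 to 0.65, edgeR adjusted p = 0.064), and it was called at the same 0.33 without siNeg replicate 1 (adjusted p = 0.0279) or siSlc39a2 replicate 3 (adjusted p = 0.0418), with DESeq2 (adjusted p = 0.0497) or with the groups of the comparison alone (adjusted p = 0.0161).

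The summed FPKM of the 5 desmosomal members was 305.2 ± 2.74 (SD, n = 3) in siNeg, 342.8 ± 4.55 in siSlc39a2, 339.9 ± 1.52 in siNeg PE and 406.2 ± 5.42 in siSlc39a2 PE. In FPKM, the siNeg PE and siSlc39a2 samples overlapped, and the other groups stood apart. The FPKM do not carry the TMM scaling of the CPM. Its factors were 0.9267 to 0.9605 in siNeg and 1.039 to 1.066 in siSlc39a2. Differences of the sum between groups therefore include this scale, and whether the groups stand apart without it was not tested. The ratio of Dsg2 to Dsc2 was 3.28 ± 0.351 (SD, n = 3) in siNeg, 4.48 ± 0.739 in siSlc39a2, 2.57 ± 0.152 in siNeg PE and 3.34 ± 0.325 in siSlc39a2 PE.

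Of the 10 members, 1 (Gja1) had a knockdown effect that differed with PE past the threshold and it was in the lower direction, where 1.88% of all genes tested had a lower and 1.73% a higher interaction. The median interaction was 0.06 for the members and 0.03 over all genes. Ctnna3 had the highest interaction of the members, 0.39 (SE 0.17, edgeR adjusted p = 0.274).

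**Figure D5:**
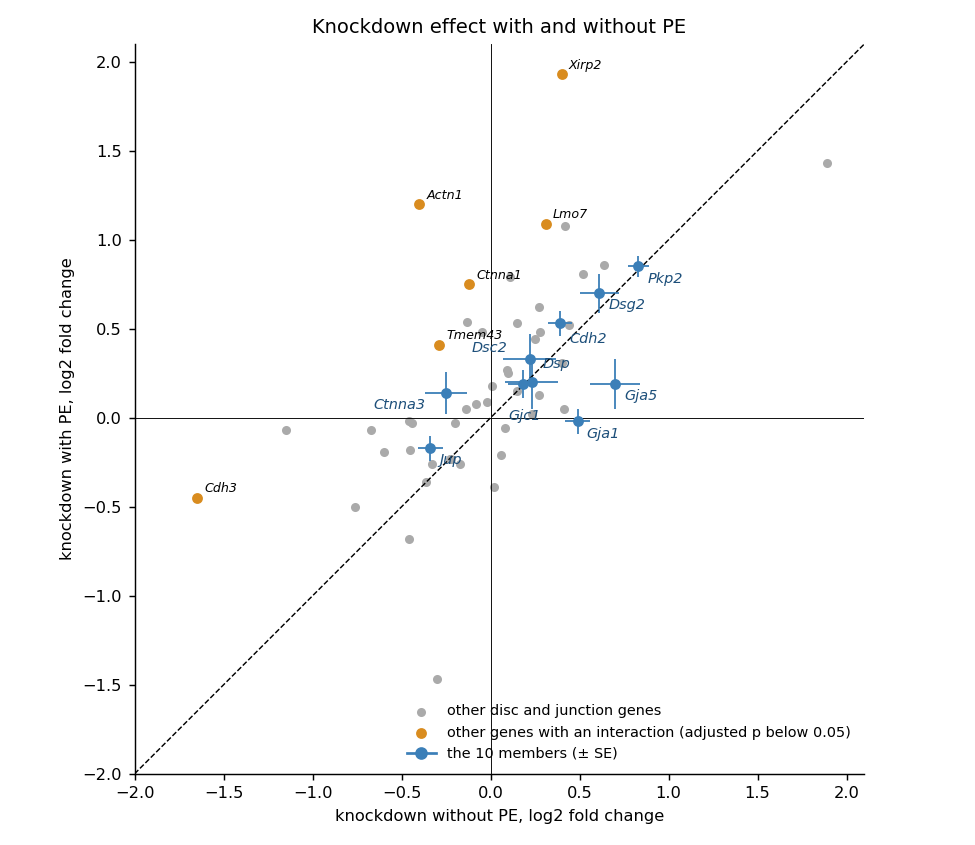
Log2 fold change with knockdown without PE (horizontal axis) against that with PE (vertical axis), for the 10 members with their standard errors and for the other disc and junction genes tested, where points on the dashed line had equal values. Gja1 lies at 0.49 and -0.02 and Pkp2 at 0.83 and 0.85, and the genes labelled in orange had an interaction past the threshold.

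Other genes of the same junctions were taken from lists. Their counts are to be read against the shares of all genes tested, which were 22.8% higher and 26.4% lower with knockdown without PE, 29.2% and 28.1% with knockdown with PE, 24.0% and 25.7% with PE under control siRNA and 30.7% and 29.3% with PE after knockdown. Of 20 other connexins and pannexins, 16 were in the tables and 7 were tested. With knockdown, 1 rose and 3 fell both without and with PE, and PE lowered 4 under control siRNA and 3 after knockdown and raised none. The riser was Gjd3, a connexin of the conduction system in mice, at log2 fold changes of 1.89 without PE (SE 0.19, edgeR adjusted p = 3.37e-06) and 1.43 with PE (SE 0.22, edgeR adjusted p = 0.000127). PE lowered Gjd3 by 1.72 on the log2 scale under control siRNA and by 2.18 after knockdown, against mean levels of 4.96 CPM in siNeg and 18.3 CPM in siSlc39a2. Gja3, the lens connexin 46, fell by 0.33 with knockdown without PE and by 0.26 with PE. Panx2, a pannexin, fell in all 4 comparisons, by 0.46 to 0.96.

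Of 12 other desmosomal genes, 5 were tested, and 2 fell with knockdown without PE, against 26.4% of all genes, while 1 rose with knockdown with PE, against 29.2%. Des, the gene of desmin, fell by 0.46 with knockdown without PE (SE 0.08, edgeR adjusted p = 0.000441) and rose by 0.63 with PE after knockdown (SE 0.08, edgeR adjusted p = 3.66e-05), but the first value was 0.01 with limma on log2(count + 1). PE raised 1 of the 5 under control siRNA and 2 after knockdown. The genes of this list that were not tested, among them Dsg1, Dsg3, Dsc1 and Pkp3 of stratified epithelia, had at most 6 counts in any sample.

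Of 13 other adherens junction genes, 10 were tested. Knockdown raised 1 and lowered 4 without PE and raised 3 and lowered 3 with PE, while PE raised 2 and lowered 3 under control siRNA and raised 5 and lowered 3 after knockdown. The 3 and 3 of 10 with knockdown with PE were close to the 29.2% and 28.1% of all genes. Cdh3, P-cadherin, fell by 1.65 with knockdown without PE (SE 0.17, edgeR adjusted p = 5.57e-06) and by 1.70 with PE under control siRNA (SE 0.17, edgeR adjusted p = 1.1e-05), from 42.9 CPM in siNeg to 13.7 CPM in siSlc39a2 and 13.2 CPM in siNeg PE. Ctnna1, the gene of αE-catenin, rose with knockdown with PE by 0.75 (SE 0.05, edgeR adjusted p = 1.32e-07), and its counts were partly shared with other genes and are uncertain.

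The 25 scaffold, channel and anchoring genes of the disc were all tested. Knockdown raised 8 and lowered 3 without PE, where 22.8% of all genes rose and 26.4% fell, and raised 14 and lowered 2 with PE, against 29.2% and 28.1%. PE raised 14 and lowered 3 under control siRNA, against 24.0% and 25.7%, and raised 19 and lowered 3 after knockdown, against 30.7% and 29.3%. Synm, the intermediate filament protein synemin, rose by 1.37 with PE under control siRNA (SE 0.16, edgeR adjusted p = 2.88e-05) and by 1.08 with knockdown with PE (SE 0.15, edgeR adjusted p = 7.07e-05). Nrap, which links myofibrils to the disc, rose by 1.17 with PE under control siRNA (SE 0.07, edgeR adjusted p = 7.8e-08). The median log2 fold change of the 25 was 0.15 and 0.41 with knockdown without and with PE, and 0.35 and 0.45 with PE under control siRNA and after knockdown, against medians over all genes of -0.02, 0.01, -0.01 and 0.01.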

How the data were processed

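RNA of NRVMs was sequenced at BGI in 4 groups of 3 biological replicates. The authors deposited expected counts per gene, not normalized, and FPKM values of the same 18483 genes. The processing notes name HISAT, Bowtie2 and the build Rnor_6.0, and the counting program and annotation are not given in the sources used here. All 10 members had whole counts in every sample, while genes with fractional counts share reads with others and are uncertain.

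Counts were rounded, filtered with filterByExpr, which left 13967 genes, normalized by TMM and fitted in 1 model of all 12 samples with edgeR 4.0.16 (R 4.3.3; quasi-likelihood F-test, Benjamini-Hochberg adjustment over all genes tested). The study used limma, which was run as an alternative because expected counts were deposited. SE is the log2 fold change divided by the square root of F. Replicates differed beyond counting noise (chi-square), so none was counted as a copy. p-values rest on the spread between the 3 cultures of a group, pooled over all 4 groups. Leaving out a sample can therefore change a call in a comparison that does not hold it.

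Each comparison was refitted with DESeq2 1.42.0, RLE size factors, no filter, the groups of each comparison alone, a replicate block, limma 3.58.1 with quantile normalization of log2(count + 1), log2(FPKM + 1) and log2(FPKM + 0.1), a log2 fold change threshold of 1, and leaving out each of the 12 samples. The fits were also run on simulated data as a check of the code. Few genes were changed there, with no interaction or replicate effect, so the results here draw no support from it. The members and lists were chosen with earlier results of these data known. All members are named, and of each other list at most the 4 genes with the largest changes among those called with a mean log2 CPM above 1 in a comparison. Promoters were read from RefSeq (GRCr8), and no genome of the build of the files was used.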

Additional observations from a re-analysis of the deposited data

Results flagged for a closer look

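The knockdown effect with PE differed from that without PE, by the interaction term in edgeR, for 1 member and 6 other genes of the disc lists. For Gja1 the difference was -0.51 on the log2 scale (adjusted p = 0.00983). The 6 others had positive differences: Ctnna1 0.87 (adjusted p = 4.86e-05, counts partly shared with other genes), Tmem43 0.71 (adjusted p = 0.000583), Actn1 1.6 (adjusted p = 0.00115), Cdh3 1.19 (adjusted p = 0.0175), Lmo7 0.78 (adjusted p = 0.034, counts partly shared) and Xirp2 1.53 (adjusted p = 0.0395). For Cdh3 the positive difference was a smaller fall with knockdown, at log2 fold changes of -0.45 with PE and -1.65 without PE.

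Tmem43, a nuclear envelope protein gene linked to arrhythmogenic cardiomyopathy, fell by 0.29 with knockdown without PE and rose by 0.41 with PE. Actn1, α-actinin-1, fell by 0.40 without PE and rose by 1.20 with PE. Of the 7 genes, these 2 had calls in opposite directions in the 2 knockdown comparisons of the fit reported.

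The interaction of Cdh3 was not called without siNeg PE replicate 2 (1.13, adjusted p = 0.0561) or siSlc39a2 replicate 1 (1.1, adjusted p = 0.0589). The interaction of Lmo7 was lost without siNeg replicate 2 or 3, siNeg PE replicate 1 or 2, siSlc39a2 PE replicate 2 or 3, or siSlc39a2 replicate 1 or 2, with values of 0.66 to 0.80 and adjusted p of 0.058 to 0.0959. That of Xirp2 was lost without any single siNeg or siSlc39a2 library or siSlc39a2 PE replicate 2 or 3, with values of 1.31 to 1.59 and adjusted p of 0.0602 to 0.0985.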

How the results depend on the processing

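Over the 50 member results, 990 refits gave the same direction and call in 903, lost a call in 14, gained one in 31 and turned the sign in 42, in each case of a value that was not called. Leaving out single samples gave 6 to 7 members called for knockdown without PE, 6 to 7 for PE under control siRNA, 3 to 5 for knockdown with PE, 7 to 7 for PE after knockdown and 1 to 1 for the interaction. Requiring a log2 fold change above 1 as well left 0 members for knockdown without PE, 1 for PE under control siRNA, 0 for knockdown with PE, 3 for PE after knockdown and 0 for the interaction. Deviations from the group mean correlated at -0.0904 to 0.32 between same-numbered samples. In a comparison, 2 to 4 of 6 samples correlated best with their own number. Same-numbered samples correlated on average at 0.191 for PE under control siRNA and 0.149 for knockdown with PE, against -0.0947 and -0.0745 for different numbers. The averages were 0.00614 against -0.00306 for knockdown without PE and 0.0512 against -0.0253 for PE after knockdown. Whether equal numbers mark a shared culture was not settled. A fit with the replicate block called 9 members for knockdown without PE (7 higher, 2 lower), adding Gjc1 (0.18, adjusted p = 0.0253), Ctnna3 (-0.24, adjusted p = 0.022) and Dsp (0.26, adjusted p = 0.0455). It called 7 for knockdown with PE (6 higher, 1 lower), adding Gja5 (0.2, adjusted p = 0.0237), Gjc1 (0.19, adjusted p = 0.021), Jup (-0.17, adjusted p = 0.00346) and Dsc2 (0.34, adjusted p = 0.00816). It called 2 for the interaction, adding Gja5 (-0.5, adjusted p = 0.00751), and changed no call in the PE comparisons. Over all genes, the interaction was called for 504 in the fit reported, 831 with DESeq2, 1053 with the block, 805 with limma on log2(FPKM + 1) and from 255 to 539 without 1 sample.

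The sign turned for values near 0, and the cause was not tested. For PE under control siRNA, Gjc1 was 0.0031 without the filter, 0.0028 with the groups alone, 0.02 with limma on either FPKM scale and -0.08 to 0.06 without 1 sample, and Dsp was -0.06 to 0.22 without 1 sample. For knockdown with PE, Gja1 was 0.02 with limma on either FPKM scale, 0.09 on log2(count + 1) and -0.06 to 0.06 without 1 sample. For PE after knockdown, Gjc1 was 0.01 on either FPKM scale, and without 1 sample it was -0.04 to 0.0033, Dsp -0.05 to 0.17 and Jup -0.12 to 0.01. For the interaction, Gjc1 was -0.02 with DESeq2 and with RLE, -0.03 without the filter, -0.0045 and -0.01 on the FPKM scales, -0.04 on log2(count + 1) and -0.07 to 0.06 without 1 sample. Pkp2 was -0.01 without the filter and on log2(count + 1), and Cdh2 -0.07 on log2(count + 1). Without 1 sample, the interaction was -0.03 to 0.06 for Pkp2, -0.15 to 0.13 for Dsp, -0.01 to 0.18 for Dsg2 and -0.01 to 0.26 for Dsc2. Des with knockdown without PE was 0.01 on log2(count + 1).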

Other observations

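The other marker lists moved with the groups as follows. Smooth muscle and mural cell markers (8 genes) summed to 986.6 to 1077 CPM in siNeg, 599.4 to 683.5 in siSlc39a2, 926.2 to 1020 in siNeg PE and 866.5 to 883.8 in siSlc39a2 PE. This sum holds genes that moved in opposite directions. PE raised 1 and lowered 3 under control siRNA, against 24.0% and 25.7% of all genes tested. It raised 4 and lowered 3 after knockdown, against 30.7% and 29.3%. Cnn1 rose by 2.57 and 4.29 on the log2 scale, while Pdgfrb fell by 0.51 under control siRNA and Abcc9 by 0.56 and 0.52. The 8 macrophage and blood cell markers in the tables summed to 27.1 to 31.9 CPM in siNeg, 16.3 to 17.7 in siSlc39a2, 16.8 to 19.2 in siNeg PE and 10.4 to 11.2 in siSlc39a2 PE. Epicardial markers (6 genes) summed to 46.8 to 59.1 CPM in siNeg, 26.3 to 30.6 in siSlc39a2, 32.1 to 39.8 in siNeg PE and 22.6 to 28.1 in siSlc39a2 PE. The part of these cells in the changes of the members was not tested.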
